A study of Bos taurus with 8 samples.

Results

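Lubricin and hyaluronan are the main lubricants of the cartilage surface. Of 8 genes that make, cut, bind or receive them, 6 could be tested in these RNA-Seq counts, and 1, *PRG4*, differed between chondrocytes of the superficial zone and of the deep zone. It was higher in the superficial zone, as were 2.23% of all genes tested, while 0.700% were higher in the deep zone. The 8 genes were taken by name from the gene table: *PRG4*, *HAS1*, *HAS2*, *HAS3*, *HYAL1*, *HYAL2*, *CD44* and *TNFAIP6*. For 7 of them a row was found among the 24596 genes counted. No row carried the name *HAS3*, which was not analysed here. *HAS1* had too few counts for the default filter of edgeR, so 6 of the 8 were among the 12857 genes tested.

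The superficial chondrocytes (SZCs) and the deep ones (DZCs) were wild-type primary cells isolated from the knee cartilage of calves 1 to 2 weeks old. Both were cultured for 3 days in medium with fetal bovine serum and no further agent, and 2 RNA-Seq libraries were sequenced from each zone. Cells of a zone were pooled from all cores of a joint, and the middle zone was discarded, so the comparison is between the ends of the tissue after a short culture. ATAC-Seq of the same kinds of cells was not analysed here. Library totals lay between 19918970 and 21890549 counts. All 7 superficial zone markers on the list used here (*VIT*, *EPHA3*, *WIF1*, *THBS4*, *GDF5*, *ERG* and *CLU*) were higher in SZCs by the exact test of edgeR, of which *GDF5*, *ERG* and *CLU* were not called without SZC replicate 1 or without SZC replicate 2. *WIF1* was not called by DESeq2, *CLU* was not called with the replicate block, and none of the 7 was called by the quasi-likelihood test with no block. Some of these were named as markers by the study on these very samples, so they are not independent evidence for the zone labels. The DZC libraries stood apart from each other. The 6 cycling cell markers summed to 12.6 CPM (TMM-scaled counts relative to a fixed library size) in DZC replicate 1 and 281 CPM in DZC replicate 2, against 157 and 183 CPM in SZC replicates 1 and 2. Deep zone and hypertrophic markers also split the DZC libraries, in both directions. *IHH*, a signal of prehypertrophic chondrocytes and the 1 of 4 tested markers that was called (higher in DZCs, edgeR exact test, FDR 0.0160), was at 12.1 CPM in DZC replicate 1 and 2.15 CPM in DZC replicate 2, and *PTH1R* was at 45.8 and 17.5 CPM. The call on *IHH* held in 1 of the 4 fits with a library left out, that without DZC replicate 2. The genes *MMP13*, *ALPL*, *IBSP*, *SP7* and *COL10A1* were at most 0.0622 CPM in DZC replicate 1 and between 6.27 and 21.0 CPM in DZC replicate 2. Where the call on a gene described below changed with a DZC library left out, the fit without it or the count of calls in its list is given.

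Lubricin, the product of *PRG4*, is a long mucin-like glycoprotein that coats the cartilage surface and keeps opposing surfaces from adhering. Hyaluronan is an unbranched sugar polymer that is extruded through the plasma membrane by the synthases HAS1, HAS2 and HAS3 and is cut by hyaluronidases, of which HYAL1 acts in lysosomes and HYAL2 is anchored at the cell surface. CD44 is the main cell surface receptor for hyaluronan, and the secreted protein TSG-6, encoded by *TNFAIP6*, transfers protein chains onto hyaluronan in inflamed or remodelling matrix. In the joint, hyaluronan thickens synovial fluid and also anchors aggrecan within cartilage.

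*PRG4* (ENSBTAG00000011932) had 69682 counts in SZC replicate 1 and 46976 in SZC replicate 2, against 246 in DZC replicate 1 and 1372 in DZC replicate 2. In CPM these were 3164 and 2023 in SZCs and 15.3 and 61.5 in DZCs. Both SZC libraries were thus far above both DZC libraries, and within each zone the replicates also differed. *PRG4* took 0.350% of all counts in SZC replicate 1 (95% Wilson interval 0.347% to 0.352%) and 0.230% in SZC replicate 2 (0.228% to 0.232%). For the DZC libraries it was 0.00112% (0.000992% to 0.00127%) in replicate 1 and 0.00666% (0.00631% to 0.00702%) in replicate 2. The intervals treat reads as independent molecules, which amplified reads are not, so they are at best a lower bound on counting error. Variation between libraries is not in them. Intervals this narrow did not overlap between the DZC libraries, in which *PRG4* was 4.02-fold higher in replicate 2 than in replicate 1. Means were 2593 ± 807 CPM (SD, n = 2) for SZCs and 38.4 ± 32.6 CPM (SD, n = 2) for DZCs.

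The fold difference was 67.5 with a 95% interval of 26.2 to 174, or 6.08 on the log2 scale (standard error, SE, 0.70, edgeR exact test, FDR 2.85e-09). Among all genes tested, 2.23% were called higher in SZCs and 0.700% higher in DZCs at the same FDR of 0.05. Read within replicate numbers, *PRG4* was 207-fold higher in SZCs for number 1 and 32.9-fold higher for number 2. Most of that gap came from the DZC side, since the SZC replicates differed by less than the DZC replicates did. Leaving out DZC replicate 1 gave a log2 ratio of 5.40 and leaving out DZC replicate 2 gave 7.42, the lowest and highest values with a library left out, and *PRG4* passed in all 4 such fits. It did not pass in edgeR's quasi-likelihood test with no replicate block, where its FDR was 0.14 and 0 of the 12857 genes passed. In bulk libraries, fewer cells that express a gene and less RNA per cell cannot be told apart, and this holds for every level given here.

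**Figure D1:**
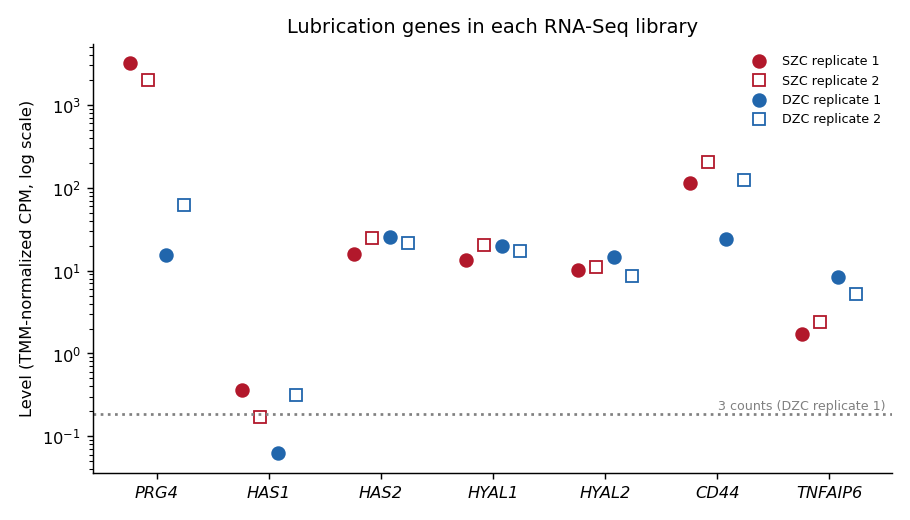
Level of each of the 7 counted genes in the 4 RNA-Seq libraries, in TMM-normalized CPM on a log axis. Red marks SZCs and blue DZCs, circles are replicate 1 and squares replicate 2, and the dotted line is the level of 3 counts in DZC replicate 1. *PRG4* separates widely by zone, *TNFAIP6* separates in the opposite direction, *CD44* is low in DZC replicate 1 alone, and *HAS2*, *HYAL1* and *HYAL2* overlap.

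Of the counts of *HAS1* and *HAS2* together, *HAS2* carried nearly all. *HAS2* (ENSBTAG00000019892) was counted 351 and 568 times in SZC replicates 1 and 2 and 413 and 482 times in DZC replicates 1 and 2. Its level was 15.9 and 24.5 CPM in SZCs and 25.7 and 21.6 CPM in DZCs, so the zones overlapped and the lowest library was SZC replicate 1. Means were 20.2 ± 6.03 CPM (SD, n = 2) for SZCs and 23.6 ± 2.89 CPM (SD, n = 2) for DZCs. The log2 ratio was -0.23 (SE 0.40, edgeR exact test, FDR 1). Its 95% interval in folds ran from 0.494 to 1.48, so a difference was not detectable with 2 libraries a zone, and a change as large as that of *PRG4* lies far outside the interval.

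*HAS1* (ENSBTAG00000017672), another of the synthases, was barely detected. It had 8 and 4 counts in SZC replicates 1 and 2 and 1 and 7 counts in DZC replicates 1 and 2. These are 0.363 and 0.172 CPM in SZCs and 0.0622 and 0.314 CPM in DZCs, where 3 counts correspond to between 0.129 and 0.187 CPM depending on the library. No direction was read from so few counts. *HAS2* made up 97.8% of the *HAS1* and *HAS2* counts in SZC replicate 1 (95% Wilson interval 95.7% to 98.9%) and 99.3% in SZC replicate 2 (98.2% to 99.7%). In DZCs the share was 99.8% in replicate 1 (98.6% to 99.96%) and 98.6% in replicate 2 (97.1% to 99.3%). The mean share was lower in SZCs by 0.627 percentage points, with p = 0.667 in an exact two-sided permutation test whose smallest possible p is 0.333. These are shares of counts and not of transcripts, because no transcript lengths were applied.

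The hyaluronidase genes were as level as *HAS2*. *HYAL1* (ENSBTAG00000000483) had 297 and 470 counts in SZCs against 315 and 380 in DZCs, or 13.5 and 20.2 CPM against 19.6 and 17.0 CPM for replicates 1 and 2. The SZC values lay on either side of the DZC values. *HYAL2* (ENSBTAG00000000484) had 224 and 258 counts in SZCs against 232 and 192 in DZCs, or 10.2 and 11.1 CPM against 14.4 and 8.60 CPM. Here the DZC values lay on either side of the SZC values. The log2 ratio was -0.12 for *HYAL1* (SE 0.41, edgeR exact test, FDR 1) and -0.11 for *HYAL2* (SE 0.47, FDR 1). In folds, the 95% interval was 0.526 to 1.61 for *HYAL1* and 0.486 to 1.76 for *HYAL2*. *HYAL2*, *HYAL1* and *HYAL3* are neighbours in the RefSeq annotation of the ARS-UCD2.0 assembly, where the interval of *HYAL2* overlaps that of *TUSC2*, the interval of *PRG4* overlaps that of *TPR* and the interval of *CD44* overlaps that of an unnamed locus. Since the reads were counted without strand, reads from such overlaps cannot be assigned to one gene, and *TUSC2*, *TPR*, *HYAL3* and the locus at *CD44* were not analysed here.

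The signs of these small differences depended on the scaling. With libraries scaled by their totals alone, the log2 ratio became 0.10 for *HAS2*, 0.21 for *HYAL1* and 0.26 for *HYAL2*. That scaling moved the median over all tested genes by 0.30, from -0.04 to 0.26. Relative to the median, *HAS2* stood at -0.19 with TMM and -0.15 with totals, *HYAL1* at -0.08 and -0.05, and *HYAL2* at -0.07 and 0.0023. A ratio of genes within a library needs no scaling. There were 0.674 and 0.780 *HAS2* counts for each count of *HYAL1* and *HYAL2* together in SZC replicates 1 and 2, and 0.755 and 0.843 in DZC replicates 1 and 2. The zones overlapped on this measure, and the mean log2 ratio was lower in SZCs by 0.14 (SZC minus DZC -0.14, p = 0.667 by an exact two-sided permutation test).

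*CD44* (ENSBTAG00000011578) had 2508 and 4788 counts in SZC replicates 1 and 2, 384 in DZC replicate 1 and 2750 in DZC replicate 2. Its level was 114 and 206 CPM in SZCs and 23.9 and 123 CPM in DZCs. DZC replicate 1 was the low library, and DZC replicate 2 lay between the SZC libraries. Means were 160.0 ± 65.3 CPM (SD, n = 2) for SZCs and 73.5 ± 70.2 CPM (SD, n = 2) for DZCs, so the SD of the DZC libraries was almost as large as their mean. The log2 ratio of 1.12 (SE 0.77, edgeR exact test, FDR 0.83) had a 95% interval in folds of 0.764 to 6.19. *CD44* was 5.16-fold higher in DZC replicate 2 than in DZC replicate 1, a larger step than between the zones, which was 2.18-fold.

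The call on *CD44* rested on which DZC library was used. Without DZC replicate 2 its log2 ratio was 2.76 (edgeR exact test, FDR 7.90e-09), and without DZC replicate 1 it was 0.38 (FDR 0.822). In the former fit the spread is estimated from the SZC libraries, with the lone DZC library assumed to vary alike, and 12.2% of all tested genes were then called higher in SZCs and 8.51% higher in DZCs. The cycling cell markers and the dedifferentiation markers also had their lowest sums in DZC replicate 1. For dedifferentiation (*COL1A1*, *COL1A2*, *COL3A1*, *ACTA2* and *TAGLN*) the sums were 16003 and 24244 CPM in SZCs and 3218 and 13257 CPM in DZCs, and their part in the level of *CD44* was not tested. The collagen genes carry these sums. *ACTA2* (11.5 and 93.2 CPM in SZCs, 53.2 and 311 CPM in DZCs) and *TAGLN* (13.9 and 75.0 CPM, 29.5 and 204 CPM) were lowest in SZC replicate 1. Of the 6 cycling cell markers, 0 were called by the exact test of edgeR or by DESeq2, with 0 at an unadjusted p under 0.05 in either, but all 6 were called higher in SZCs without DZC replicate 2. Of the 5 dedifferentiation markers 0 were called by either tool, with 2 at an unadjusted p under 0.05 in each. With DZC replicate 2 left out, 3 of them were called higher in SZCs, without DZC replicate 1, 2 were called higher in DZCs, and without SZC replicate 2 as well as with the replicate block, 1 was called higher in DZCs. Over all genes, 3.96% were called higher in SZCs and 2.71% higher in DZCs without DZC replicate 1.

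*TNFAIP6* (ENSBTAG00000007239) went the other way. It was counted 38 and 55 times in SZC replicates 1 and 2 and 136 and 117 times in DZC replicates 1 and 2. Its level was 1.73 and 2.37 CPM in SZCs and 8.46 and 5.24 CPM in DZCs, so both DZC libraries lay above both SZC libraries. Means were 2.05 ± 0.455 CPM (SD, n = 2) for SZCs and 6.85 ± 2.27 CPM (SD, n = 2) for DZCs, 3.33-fold apart. The log2 ratio was -1.74 (SE 0.59) with a 95% interval of -2.90 to -0.58. Its unadjusted p was 0.00474 and its FDR 0.116 by the exact test of edgeR, so it did not pass over all genes. It missed the threshold under all 7 alternative tests, scalings and filters as well, with FDR from 0.0861 in DESeq2 to 0.475 with library totals. With a library left out it passed in 1 of 4 fits, that without DZC replicate 2, at a log2 ratio of -2.03 (edgeR exact test, FDR 0.00153), where 8.51% of all genes were called higher in DZCs. It was at -1.35 without DZC replicate 1 (edgeR exact test, FDR 0.142) and had an FDR of 1 without either SZC library.

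Counted over the group, 1 of the 6 tested genes was called higher in SZCs and 0 were called higher in DZCs by the exact test of edgeR, beside 2.23% and 0.700% of all genes. DESeq2 gave the same counts, and 2 of the 6 had an unadjusted p under 0.05 in the exact test, *PRG4* and *TNFAIP6*, as did 9.09% of all genes. For these same genes the libraries of the zones did not overlap, while over all tested genes 41.5% did not overlap. The median log2 ratio of the 6 was -0.11, beside -0.04 for all tested genes.

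**Figure D2:**
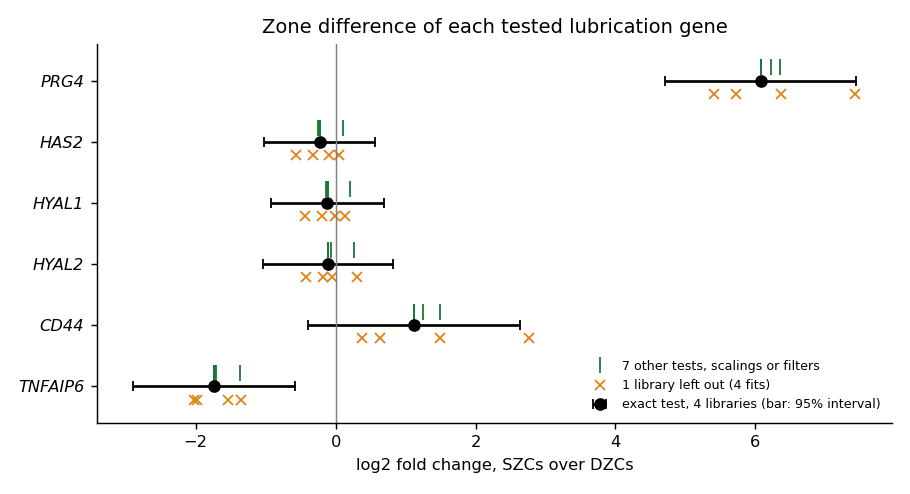
Log2 ratio of SZCs over DZCs for the 6 tested genes. Black points are log2 ratios from the exact test of edgeR. Bars are normal 95% intervals from a negative binomial fit at each gene's own dispersion. Green ticks are the 7 other tests, scalings or filters, and orange crosses the 4 fits with 1 library left out. *PRG4* stays between 5.40 and 7.42 throughout, *CD44* spreads from 0.38 to 2.76 with a library left out, and the signs of *HAS2*, *HYAL1* and *HYAL2* vary around 0.

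The lubricin gene and the hyaluronan receptor gene both had their lowest level in DZC replicate 1, yet their ratio separated the zones. There were 27.8 and 9.81 *PRG4* counts for each *CD44* count in SZC replicates 1 and 2, and 0.641 and 0.499 in DZC replicates 1 and 2. The mean log2 ratio was higher in SZCs by 4.87, with p = 0.333 in an exact two-sided permutation test, the smallest p that 2 libraries against 2 allow. The DZC replicates were 1.28-fold apart on this ratio and 4.02-fold apart on *PRG4* itself, while the SZC replicates were 2.83-fold apart on the ratio and 1.56-fold apart on *PRG4*. The lengths of the transcripts enter the ratio itself but cancel between libraries.

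**Figure D3:**
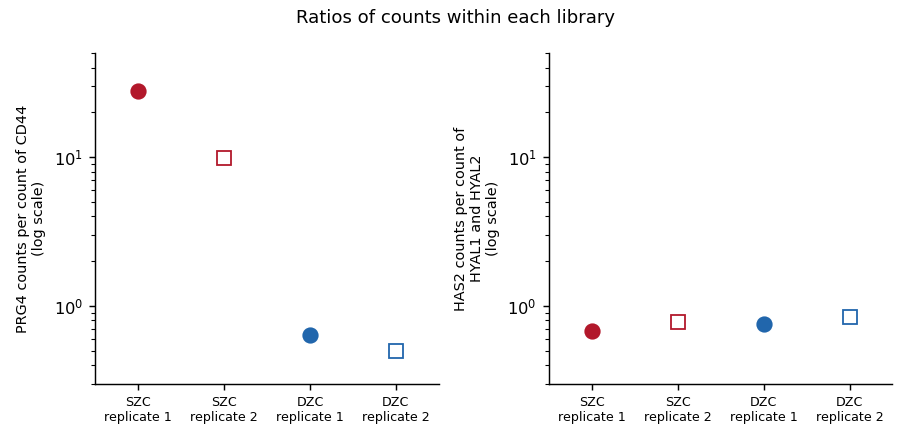
Ratios of counts within each library, on log axes that share a range. The left panel gives *PRG4* counts per count of *CD44*, which lie at 27.8 and 9.81 in SZCs and at 0.641 and 0.499 in DZCs. The right panel gives *HAS2* counts per count of *HYAL1* and *HYAL2* together, which lie between 0.674 and 0.843 in all 4 libraries.

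Genes around hyaluronan were examined as lists. The sugar nucleotides that the synthases polymerize are made by GFPT1, GFPT2, GNPNAT1, PGM3, UAP1, UGP2 and UGDH. Of these 7 genes, all tested, 0 were called by the exact test of edgeR or by DESeq2, with 0 at an unadjusted p under 0.05 in either. Their log2 ratios lay between -0.45 (*GNPNAT1*) and 0.31 (*UGDH*, the dehydrogenase that makes UDP-glucuronic acid), with a median of 0.06. *UGDH* was at 99.8 and 140 CPM in SZCs and 120 and 74.2 CPM in DZCs for replicates 1 and 2, which overlap.

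Of 8 further genes that degrade hyaluronan, 5 were tested and 0 were called by either edgeR's exact test or DESeq2, with 1 at an unadjusted p under 0.05 in each. That one was *GUSB*, a lysosomal glucuronidase, at 127 and 138 CPM in SZCs and 290 and 180 CPM in DZCs, with a log2 ratio of -0.83 (edgeR exact test, FDR 0.488). *CEMIP*, which drives hyaluronan depolymerization at the cell surface, was at 49.4 and 82.2 CPM in SZCs, 3.23 CPM in DZC replicate 1 and 51.2 CPM in DZC replicate 2. Its log2 ratio was 1.27 (SE 1.06, edgeR exact test, FDR 0.922), and as with *CD44* the low library was DZC replicate 1. *CEMIP* was at 4.36 without DZC replicate 2 (edgeR exact test, FDR 2.71e-19) and at 0.37 without DZC replicate 1 (FDR 0.799), and *GUSB* was called without DZC replicate 2, at -1.11. Without DZC replicate 2, 3 genes of this list were called higher in SZCs and 1 higher in DZCs, beside 12.2% and 8.51% of all genes. *HYAL4* and *SPAM1*, the latter a hyaluronidase of sperm, had at most 10 counts in any library, and *HYAL3* had no row.

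Of 5 further receptor and uptake genes, 3 were tested and 0 called by the exact test of edgeR or by DESeq2, with 0 at an unadjusted p under 0.05 in either. *HMMR*, which binds hyaluronan and the mitotic spindle, was at 8.95 and 15.7 CPM in SZCs and 3.79 and 24.2 CPM in DZCs, and its order over the DZC libraries was that of the cycling cell markers. Without DZC replicate 2, 2 of these genes were called higher in SZCs, beside 12.2% of all genes. *HMMR* was one of them, at a log2 ratio of 1.71, and was at -0.97 without DZC replicate 1. *LYVE1* and *STAB2*, receptors of lymphatic and sinusoidal endothelium, did not pass the filter.

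All genes called in the 4 hyaluronan lists were on the hyaluronan-binding matrix list. The name of that list does not mean that each product binds hyaluronan itself. Of its 15 genes 7 were tested and 3 were called, all higher in SZCs, beside 2.23% of all genes. *VCAN*, which encodes the large hyaluronan-binding proteoglycan versican, was at 2186 and 1843 CPM in SZCs and 44.2 and 256 CPM in DZCs. It was 13.4-fold higher in SZCs, a log2 ratio of 3.75 (SE 0.78, edgeR exact test, FDR 0.00211). *PTX3*, a pentraxin that acts with TSG-6 to organize hyaluronan, was at 48.5 and 208 CPM in SZCs and 0.746 and 4.44 CPM in DZCs. Its log2 ratio was 5.62 (SE 0.94, edgeR exact test, FDR 0.000152), and its replicates were 4.28-fold apart in SZCs and 5.94-fold apart in DZCs. *ITIH4*, a secreted relative of the chains that TSG-6 transfers, had 69 and 44 counts in SZCs and 7 and 9 in DZCs, a log2 ratio of 2.57 (edgeR exact test, FDR 0.0370). *ITIH4* passed under 3 of 7 alternatives and was lost in DESeq2, with no filter and in both quasi-likelihood fits, as well as without SZC replicate 1 and without SZC replicate 2. *VCAN* and *PTX3* were lost only in the quasi-likelihood test with no replicate block, and passed with each library left out in turn, though their size moved. The log2 ratio of *VCAN* was 2.98 without DZC replicate 1 and 5.53 without DZC replicate 2, and that of *PTX3* was 4.21 without SZC replicate 2, 4.86 without DZC replicate 1, 6.31 without SZC replicate 1 and 7.43 without DZC replicate 2.

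*ACAN* and *HAPLN1*, which encode aggrecan and the link protein that fastens it to hyaluronan, did not pass. *ACAN* was at 26511 and 32352 CPM in SZCs and 64565 and 23316 CPM in DZCs, with a log2 ratio of -0.58 (SE 0.59, edgeR exact test, FDR 0.966). *HAPLN1* was at 3328 and 4059 CPM in SZCs and 4954 and 2725 CPM in DZCs, a log2 ratio of -0.06 (FDR 1). For both, DZC replicate 1 was the highest library and DZC replicate 2 the lowest. *ACAN* was at -1.12 without DZC replicate 2 (edgeR exact test, FDR 0.00897) and at 0.34 without DZC replicate 1 (FDR 0.826), and *HAPLN1* at -0.41 and 0.44 in the same fits, not called in either. With DZC replicate 2 left out, 5 genes of the matrix list were called higher in SZCs and 1, *ACAN*, higher in DZCs. Across the 4 hyaluronan lists 3 of 22 tested genes were called with all libraries, and 12 were called without DZC replicate 2, where 20.7% of all genes were called.

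Lubricin's own partners were a mixed group. Of 10 genes for proteins that bind, crosslink or cut lubricin, 9 were tested, 1 was called higher in SZCs and 0 higher in DZCs by the exact test of edgeR, beside 2.23% and 0.700% of all genes. At an unadjusted p under 0.05 there were 5, beside 9.09% of all genes. DESeq2 called 2 higher in SZCs and 0 higher in DZCs. The called gene was *PCSK6*, a proprotein convertase, at 34.2 and 30.9 CPM in SZCs and 3.42 and 6.23 CPM in DZCs, a log2 ratio of 2.74 (SE 0.45, edgeR exact test, FDR 1.80e-06). It was not called without SZC replicate 1. Of the others, *CTSS*, a cathepsin, was at 18.3 and 19.2 CPM in SZCs and 1.37 and 6.54 CPM in DZCs (log2 ratio 2.23, edgeR exact test, FDR 0.103). *COMP*, a pentameric matrix protein, was at 2396 and 4387 CPM in SZCs and 12379 and 4835 CPM in DZCs (log2 ratio -1.34, FDR 0.412). *FURIN*, another convertase, was at 286 and 267 CPM in SZCs and 372 and 201 CPM in DZCs, which overlap. Without DZC replicate 2, 4 genes of this list were called higher in SZCs and 2 higher in DZCs, beside 12.2% and 8.51% of all genes. They include *CTSS* at 3.78 and *COMP* at -1.85. Without DZC replicate 1, 2 were called higher in SZCs, *CTSS* among them at 1.52, and 1 higher in DZCs, beside 3.96% and 2.71% of all genes, with *COMP* at -0.51 (edgeR exact test, FDR 0.704).

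Of 11 genes for factors and receptors with a known role in *PRG4* expression, all tested, 2 were called higher in SZCs and 0 higher in DZCs by the exact test of edgeR, beside 2.23% and 0.700% of all genes, and the same numbers by DESeq2. Since *CREB5* was put on the list for its part in the study of these very samples, its call is not independent evidence. The called genes were *CREB5*, a basic leucine zipper factor, with a log2 ratio of 4.61 (SE 0.46), and *NFATC2*, a calcineurin-regulated factor, with one of 1.72 (SE 0.50, edgeR exact test, FDR 0.0333). *NFATC2* was at 28.7 and 15.4 CPM in SZCs and 7.90 and 5.47 CPM in DZCs, and was not called without SZC replicate 1 or without SZC replicate 2. The genes of the TGF-β and EGF receptors were not called with all libraries. *TGFBR1* was at 50.9 and 72.6 CPM in SZCs and 13.4 and 39.1 CPM in DZCs, and *EGFR* at 55.4 and 54.3 CPM in SZCs and 58.3 and 106 CPM in DZCs. Once DZC replicate 2 was left out, 4 genes of the list were called higher in SZCs, beside 12.2% of all genes, with *TGFBR1* among them at 2.22. Without DZC replicate 1, 2 were called higher in SZCs and 1, *EGFR* at -0.95, higher in DZCs, beside 3.96% and 2.71% of all genes.

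**Figure D4:**
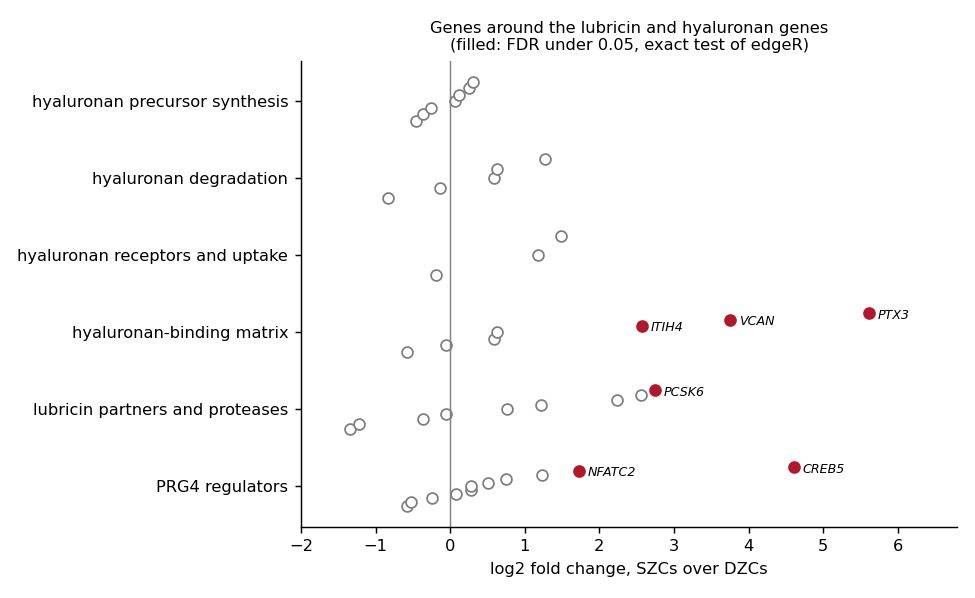
Log2 ratio of SZCs over DZCs for every tested gene of 6 lists around hyaluronan and lubricin. Each point is a gene, and filled red points passed an FDR of 0.05 in the exact test of edgeR. The 6 filled points all lie on the SZC side, with *PTX3* at 5.62 and *CREB5* at 4.61 farthest out, while genes of precursor synthesis lie between -0.45 and 0.31.

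The profile of *PRG4* over the 4 libraries was set beside that of every tested gene, by the root mean square distance of log2(CPM + 1) values centred on their mean. The nearest gene was *CLCA2*, at a distance of 0.65, with 86.1 and 74.8 CPM in SZCs and 0.497 and 1.34 CPM in DZCs. *MSMP* followed at 0.87, with 613 and 370 CPM in SZCs and 11.3 and 10.3 CPM in DZCs. *IGSF10*, *WIF1* and *ABI3BP* came next at distances of 0.92, 0.95 and 0.96. All 5 were called higher in SZCs, which a profile near that of *PRG4* makes likely. *MSMP* was level over the DZC libraries, and *ABI3BP* rose from 0.808 CPM in DZC replicate 1 to 13.6 CPM in DZC replicate 2, a wider step than that of *PRG4*. With 4 libraries these distances are a description of the samples.

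**Figure D5:**
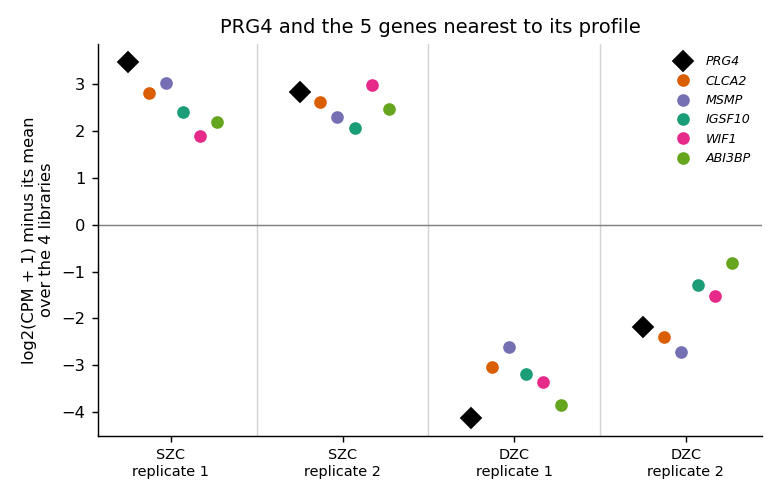
Centred log2(CPM + 1) values of *PRG4* (black diamonds) and of the 5 genes nearest to its profile (coloured circles) in the 4 RNA-Seq libraries. All 6 genes lie above their mean in both SZC libraries and below it in both DZC libraries, and *PRG4* is the lowest of them in DZC replicate 1.

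Cells of the synovial lining also make lubricin and hyaluronan, so markers of other cell types were read beside *PRG4*. Of 7 markers of synovial lining fibroblasts, 6 were tested. By the exact test of edgeR, 1 was called higher in SZCs and 0 higher in DZCs, beside 2.23% and 0.700% of all genes. DESeq2 called 2 higher in SZCs and 0 higher in DZCs. The called gene, *VCAM1*, an adhesion molecule, was at 454 and 248 CPM in SZCs and 18.9 and 42.6 CPM in DZCs. *CLIC5* was near 0, with 2 and 5 counts in SZCs and 0 and 1 in DZCs. *PDPN* was at 491 and 452 CPM in SZCs and 1102 and 762 CPM in DZCs, higher in both DZC libraries but not called (edgeR exact test, FDR 0.254). Other markers of the list were not called. *CD55*, which marks lining cells, was at 33.6 and 26.7 CPM in SZCs and 0.249 and 5.02 CPM in DZCs (edgeR exact test, FDR 0.0943), *FAP* at 53.5 and 55.7 against 4.48 and 32.9 CPM, and *HBEGF* at 3.41 and 2.84 against 1.31 and 1.39 CPM. *THY1* overlapped. Of the 6 tested, 5 had a positive log2 ratio and 5 did not overlap between zones. Over all genes tested, 5987 of 12857 had a positive log2 ratio and 41.5% did not overlap. The summed level of the list, most of which is *PDPN* in DZCs, was 948 to 1085 CPM in SZCs and 980 to 1176 CPM in DZCs. In the fit without DZC replicate 2, 3 of these markers were called higher in SZCs and 1 higher in DZCs, beside 12.2% and 8.51% of all genes, and without DZC replicate 1, 2 were called higher in SZCs, beside 3.96%. *CD55* was called in both fits, and *FAP* (higher in SZCs) and *PDPN* (higher in DZCs) in the fit without DZC replicate 2. The 8 macrophage and leukocyte markers summed to 20.6 and 36.3 CPM in SZCs and 8.77 and 24.8 CPM in DZCs, and the 6 endothelial markers to 5.63 and 11.8 CPM in SZCs and 3.92 and 7.97 CPM in DZCs. Of these 2 lists 0 genes were called by the exact test of edgeR or by DESeq2, with 1 gene of each at an unadjusted p under 0.05 in the exact test. Among these, *PTPRC*, which defines leukocytes, was at most 0.603 CPM in any library, and *CDH5*, which defines endothelium, at most 0.431 CPM. *CD14*, a monocyte receptor, was at 12.0 and 16.1 CPM in SZCs and 3.92 and 6.59 CPM in DZCs (edgeR exact test, FDR 0.142), and *KDR*, an endothelial growth factor receptor, at 1.59 and 3.57 CPM in SZCs and 0 and 0.672 CPM in DZCs (edgeR exact test, FDR 0.435), without overlap. These log2 ratios also moved with the DZC library used. *CD14* was at 1.86 without DZC replicate 2 and at 1.098 without DZC replicate 1, and *KDR* at 8.73 and 1.94. Of the other macrophage and leukocyte markers, *CSF1R* was at 3.06 and 0.66 in the same fits, and *CD163* at 3.74 and 0.13. *MRC1*, on the same list, had the opposite sign, at -0.27 without DZC replicate 2 and -2.47 without DZC replicate 1. The part of these markers in the level of *PRG4* was not tested.

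Chondrocyte markers were read the same way. Of 10 such genes, all tested, 3 were called higher in DZCs and 0 higher in SZCs by the exact test of edgeR, beside 0.700% and 2.23% of all genes, with 6 at an unadjusted p under 0.05. DESeq2 called 5 higher in DZCs and 1 higher in SZCs. In the fit without DZC replicate 2, 7 were called higher in DZCs and 1 higher in SZCs, beside 8.51% and 12.2% of all genes, and without DZC replicate 1, 3 and 1, beside 2.71% and 3.96%. *CNMD*, which encodes the cartilage glycoprotein chondromodulin, was at 551 and 663 CPM in SZCs and 7107 and 2237 CPM in DZCs (edgeR exact test, FDR 0.000917). *MATN3* and *CHAD*, for matrilin and chondroadherin, had log2 ratios of -2.04 and -1.92. With library totals in place of TMM, 1 gene of the list was called higher in SZCs and 1 higher in DZCs, and *MATN3* and *CHAD* were not called. With the replicate block *CNMD* was not called, and without SZC replicate 1 none of the 10 was. Without SZC replicate 2, *CHAD* was called and *CNMD* and *MATN3* were not. *COL2A1*, the main cartilage collagen, was at 64946 and 55486 CPM in SZCs and 333028 and 118866 CPM in DZCs, 3.75-fold apart, and was not called (edgeR exact test, FDR 0.0658) except without DZC replicate 2, among the fits with a DZC library left out. *EPYC*, a small proteoglycan of cartilage, went the other way, at 32.6 and 8.96 CPM in SZCs and 5.91 and 3.23 CPM in DZCs (log2 ratio 2.19, edgeR exact test, FDR 0.100), and was called higher in SZCs with either DZC library left out. *SOX9*, the transcription factor that defines chondrocytes, had a log2 ratio of -0.05, and its libraries overlapped between zones. The part of these genes in the level of *PRG4* or *TNFAIP6* was not tested.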

How the data were processed

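The deposited table holds raw read counts per gene, which the authors made by aligning 75-bp single-end SMART-Seq v4 reads with STAR 2.5.2b to Ensembl build UMD 3.1 and counting them without strand. A second deposited table holds the authors' own fold changes and FDR values. These were not used, and only its gene symbols were read, which filled 8 blank names. In R 4.3.3, edgeR 4.0.16 was used with its default filter, TMM scaling and the exact test, as the study's methods name it, with Benjamini–Hochberg adjustment over all genes tested (FDR, threshold 0.05). Levels are CPM, counts scaled to a common total with TMM factors. Standard errors (SE) were taken from a negative binomial fit at each gene's own dispersion, and 95% intervals are normal intervals from them. The biological coefficient of variation over all genes was 0.361. A level of 3 counts was taken as the smallest that can be shown.

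The alternatives were the quasi-likelihood test of edgeR with and without the replicate number as a block, and DESeq2 1.42.0. With the exact test of edgeR they were its RLE (relative log expression) scaling, library totals, no filter, more than 1 CPM in at least 2 libraries, and each library left out. Replicates of a zone differed by more than sampling noise (chi-square per degree of freedom 50.5 and 245). The labels do not say whether samples came from separate animals. The study calls them biological duplicates. The scripts were tested on simulated data. The genes, lists and tests were chosen with earlier results of these data known. Named genes were the 8 members, the genes of the lists and the 5 genes nearest to *PRG4*. Checks of transcript length and GC content were not run.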

Additional observations from a re-analysis of the deposited data

How the results depend on the processing

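*PRG4* kept its direction under all 7 alternatives and passed under 6, with log2 ratios from 6.08 to 6.35. With no replicate block, edgeR's quasi-likelihood test gave *PRG4* 6.08 with an FDR of 0.14 and called 0 genes, 0 of the tested members and 0 genes of the hyaluronan lists, with 1126 genes at an unadjusted p under 0.05. The cause was not tested. Same-numbered libraries deviated together across genes (correlation 0.42), but the labels do not say that a number marks a joint. With the replicate block *PRG4* was at 6.35 (FDR 0.00644 by edgeR's quasi-likelihood test), 347 genes were called and no call on a member changed. With library totals, 86.7% of the called genes were higher in SZCs, against 76.1% with TMM, and the log2 ratios of *HAS2*, *HYAL1* and *HYAL2* turned to 0.10, 0.21 and 0.26. Leaving out each library in turn gave 58 to 2725 called genes (main 377), 1 to 2 members higher in SZCs, 0 to 1 higher in DZCs and 2 to 12 hyaluronan list genes. The ends of these ranges were without SZC replicate 1 (58 genes) and without DZC replicate 2 (2725 genes). The log2 ratio then ranged from -0.57 to 0.044 for *HAS2*, -0.44 to 0.14 for *HYAL1* and -0.42 to 0.31 for *HYAL2*, and the difference in *HAS2* share from -1.39 to 0.14 percentage points. Shares divided by transcript length were not run. With 2 libraries a zone and TMM scaling, the intervals of *HAS2* and *HYAL2* include a 2-fold higher level in DZCs, and *HAS1* is limited by its counts.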
